A study of Macaca fascicularis with 2 samples.

Results

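Round spermatids are the haploid germ cells that follow the meiotic divisions and precede elongation of the sperm head. They were selected here from single-cell RNA counts of a scrotal cynomolgus monkey testis, and 2663 of 15001 barcodes with at least 500 detected genes met the rule (17.8%, exact 95% binomial interval 17.1 to 18.4%). With every barcode thinned to 1500 UMIs, 1668 barcodes met it, 1624 of them members. The cells were chosen by measured values. The summed unique molecular identifiers (UMIs) of 4 spermatid genes, ACRV1, SPACA1, SUN5 and TXNDC8, had to reach 5 per 10000 UMIs and 3 UMIs in a cell. That sum also had to exceed those of early meiotic genes (DMC1, MEIOB, SPO11, PRDM9), pachytene genes (PIWIL1, POU5F2, MYBL1) and division-stage genes (CCNA1, AURKA, NEK2). The protamines PRM1 and PRM2 and the transition proteins TNP1 and TNP2 together had to stay under 5% of UMIs.

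The study examined spermatogenesis after artificial unilateral cryptorchidism in Macaca fascicularis. The unilateral abdomen testis (UAT) was held in the abdomen by the model, and the contralateral scrotum testis (CST) stayed in place, so the scrotal testis came from animals that also carried an abdominal one. Each position gave 1 library made with the 10x Genomics 3' kit, version 3, and the age, number and pooling of animals were not given in the sources used here. All cells described below are from CST. In UAT 0 of 12352 barcodes met the rule, which by a limit of 3 counts allows 0.0243% of barcodes (exact 95% binomial upper bound 0.0299%). The whole UAT library of 111047299 UMIs held 5 UMIs of ACRV1, 78 of SPACA1, 1 of SUN5 and 6 of TXNDC8. In a share of barcodes, fewer spermatids released from the tissue and fewer spermatids present cannot be told apart.

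In a round spermatid, the Golgi builds the acrosome, the enzyme-filled cap that later meets the egg coat. The nucleus still carries histones, the flagellum starts to grow, and transcription of many germ-cell genes runs at a high rate under the activator CREM. Much of the RNA made at this stage is stored and translated only after chromatin compaction, when transition proteins and then protamines replace the histones.

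The members held 53163163 UMIs, with a median of 18409 UMIs per cell (range 610 to 155925) and 4907 detected genes. With 1 library there is no replicate check and no test, and intervals cover counting error only. Of the members, 88 carried as much signal of 8 somatic markers as the somatic reference cells, while 1802 had none of their UMIs. Simulated doublets marked 407 members (15.3%), 79 of the 88 included, among 1800 calls in CST (12.0%). The number of calls was set in advance, at 0.8% of barcodes per 1000 barcodes, so 12.0% is not a measured doublet rate. Only 6 members had a barcode sequence that also occurred in UAT. Somatic reference cells held a median of 15 protamine and transition protein UMIs (range 1 to 726). Whether these came from spermatid RNA free in the droplets was not tested.

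Near the limits of the rule, 121 members had exactly 3 marker UMIs (median 1507 UMIs in all), and 253 barcodes stayed outside with 2 (median 1117 UMIs). At the protamine limit, 52 members lay between 4 and 5% of UMIs and 43 barcodes between 5 and 6% were left out. A further limit ran towards the spermatocytes, since 806 members also reached the minimum for the division-stage sum, and in 325 the spermatid sum was under 2 times the next sum. The plot of marker sum against protamine share shows the members as a band that bends upwards into the elongating cells.

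**Figure D1:**
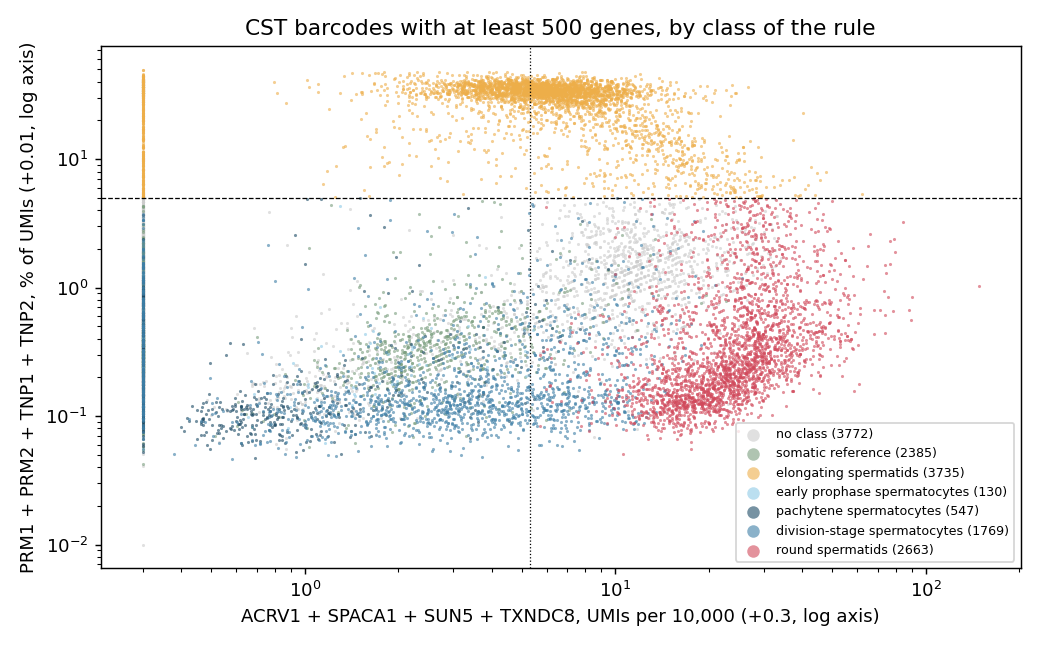
Each point is a CST barcode with at least 500 genes, placed by the marker sum (UMIs per 10000, x axis) and by the protamine and transition protein share of its UMIs (%, y axis), both on log axes with a small constant added. Dashed and dotted lines mark the limits of 5% and of 5 per 10000. Other barcodes right of the dotted line and under the dashed line missed a further condition of the rule, such as 3 marker UMIs. The 2663 round spermatids sit at lower right, and 1779 of the 3735 barcodes above the 5% line meet every condition of the rule on the marker sum.

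Each marker was also left out of the rule in turn, to give its level in cells that it did not help to choose. The remaining markers still chose these cells, and all of them were members, so this was no independent check of the label. In cells selected without it, ACRV1, an acrosome vesicle protein, had 692 CPM (the gene's UMIs as parts of 1000000 UMIs summed over the class), against 9.81 in pachytene spermatocytes, 67.5 in division-stage spermatocytes and 105 in elongating spermatids. SPACA1, an inner acrosomal membrane protein needed for acrosome shape, stood at 984 CPM in 2113 such cells, against 56.3, 322 and 88.7. SUN5, which anchors the sperm tail to the nucleus, stood at 69.1 CPM, against 1.02, 1.87 and 25.4. Each of these 3 was highest in the cells selected without it. TXNDC8, a spermatid thioredoxin, had 563 CPM against 9.09, 47.5 and 529, so round and elongating cells were close to each other for it. Among all members, 1126 had UMIs of all 4 markers, 1180 of 3, 322 of 2 and 35 of 1.

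**Figure D2:**
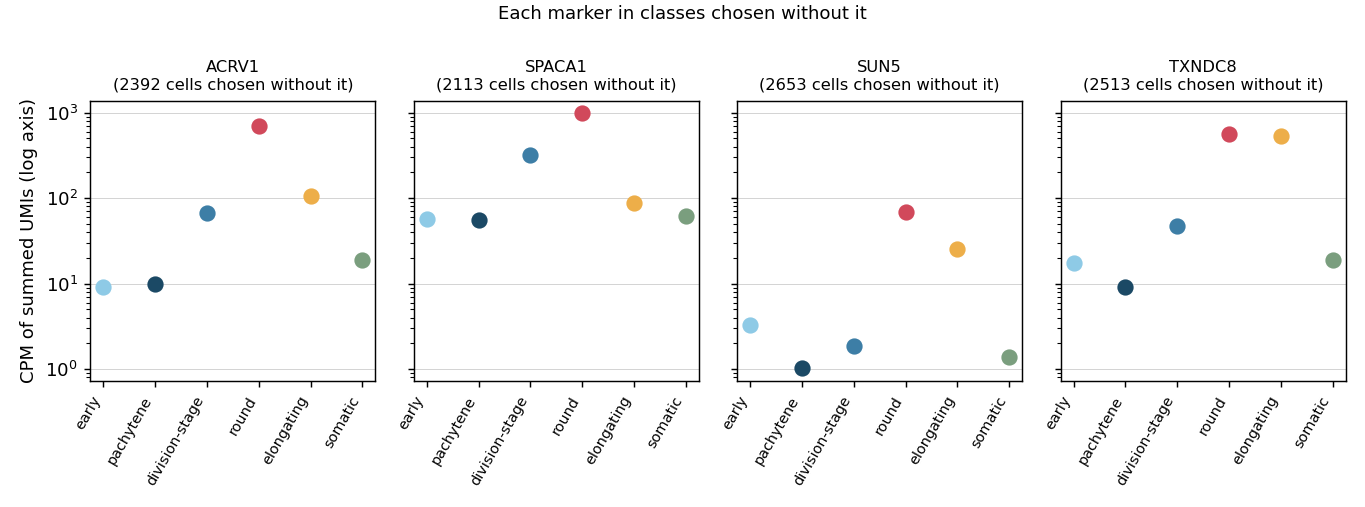
Each panel gives 1 marker in classes selected without it, as CPM of summed UMIs on a log axis, with 1 point per class. Round spermatids have the highest point in all 4 panels, with elongating spermatids almost level for TXNDC8 (563 and 529 CPM).

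The comparison classes came from the same library by the same sums: 547 pachytene spermatocytes, 1769 division-stage spermatocytes, 130 early prophase spermatocytes, 3735 elongating spermatids at 5% protamine share or more, and 2385 somatic reference cells. Levels are quoted in the order pachytene, division stage, round, elongating unless said otherwise. UMIs count 3' ends of RNA molecules and were not divided by length. Because the classes were chosen from these counts, differences between them are given by size, with no test. A gene counted as measured at 20 CPM in either class, and as higher or lower at 2-fold of CPM plus 10.

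The most abundant transcripts of round spermatids, outside mitochondrial and ribosomal genes and the genes of the rule, were mostly abundant in spermatocytes too. GSTM3, a glutathione transferase of germ cells, stood at 7882, 8631, 6731 and 2908 CPM. UBB, a polyubiquitin gene, stood at 5122, 6931, 5162 and 2159 CPM, and the sperm surface protein gene GLIPR1L1 at 6691, 6636, 4731 and 500 CPM. All 3 were highest before or at the divisions and lower in elongating cells. HMGB4, a testis HMG-box protein of spermatid chromatin, took the opposite course, with 166, 377, 5127 and 20696 CPM. CRISP2, an acrosomal and tail protein, stayed within narrow bounds from the divisions on, at 4649, 5056 and 6583 CPM. Further genes in the 15 most abundant were ANKRD7, YBX1, TSACC, CMTM2, CETN1, BOD1L2, FAM229B, COX7A2, MLF1 and LDHC. Of these, MLF1 (1034 CPM at the division stage, 2304 in round spermatids) was at least 2-fold higher than in division-stage cells.

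At 2-fold over the highest of the other 5 classes stood 676 of 6164 genes (11% of those measured). The clearest was PRSS55, a testis serine protease needed for sperm to enter the oviduct in mice, at 2.70, 7.68, 221 and 11.3 CPM. Its ratio over the next class, the elongating spermatids, was 19.7 (18.2 to 21.2). CDH18, a cadherin best known from brain, stood at 1.56, 6.76, 111 and 7.26 CPM, and CTNNA2, an alpha-catenin of neurons, at 1.86, 6.43, 201 and 22.4 CPM. ABRA, an actin-binding activator described in striated muscle, had 3.89, 12.7, 329 and 28.9 CPM. These genes were picked for their ratio over the highest other class. A level above both the division-stage and the elongating cells followed from that choice.

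Among the other genes that stood out over every class were several with a known place in sperm. SPACA5, a lysozyme-like acrosomal protein, stood at 6.17, 29.5, 562 and 64.1 CPM, and TSSK4, a kinase of the testis-specific serine kinase family, at 7.13, 34.0, 337 and 47.2 CPM. ATP6V1E2, the testis form of a subunit of the acidifying proton pump, stood at 4.43, 25.6, 307 and 36.6 CPM. TMEM262, a membrane protein associated with the sperm CatSper channel, had 34.4, 39.3, 791 and 101 CPM. ARID3A, a DNA-binding transcription factor, had 1.14, 8.30, 118 and 11.4 CPM. Genes known mainly by reading-frame names made up a good part of the rest, with C16H17orf98 (257 CPM, 14.6-fold over the elongating class), C4H6orf10, C3H7orf61, C14H11orf94 and C5H4orf47 among the 20 clearest.

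Against division-stage spermatocytes, the class that precedes them, 1982 of 7578 measured genes were past 2-fold higher in round spermatids (26.2%) and 1354 were past 2-fold lower (17.9%). Over all measured genes the log2 ratio had a median of -0.21. MMP27, a matrix metalloproteinase, stood at 1.59 CPM in division-stage cells and 133 in round spermatids, a ratio of 83.8 (64.6 to 111). C16H17orf98 followed with 3.49 and 257 CPM, and CA9, a carbonic anhydrase, with 1.65 and 103 CPM. The tail fibre gene ODF3 stood at 3.44 and 162 CPM, and PAGE3, of a cancer-testis family, at 3.58 and 171 CPM. In the lower direction, YEATS4, a reader of acetylated histones, stood at 331 CPM in division-stage cells and 14.8 in round spermatids, a ratio of 0.0447 (0.0416 to 0.0481). The meiotic cell cycle phosphatase CDC25C (109 and 8.37 CPM), the CDK-binding protein CKS2 (528 and 49.0 CPM) and the HSP90 partner PTGES3 (1135 and 96.4 CPM) were among the 10 clearest lower genes, by the interval of the ratio. In members without doublet calls the log2 ratio of HSP90AA1, given below, went from -3.14 to -4.00.

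Against pachytene spermatocytes, 2560 of 8167 genes were past 2-fold higher (31.3%) and 2367 past 2-fold lower (29%). The clearest lower gene was H1-6, the testis linker histone, with 1050 CPM in pachytene spermatocytes, 82.9 at the division stage and 14.0 in round spermatids. Its ratio to pachytene was 0.0133. Against elongating spermatids, 3247 of 6706 genes were higher (48.4%), 747 were lower (11.1%), and log2 ratios had a median of 0.97. Protamine and transition protein RNA took 27.9% of the UMIs of elongating cells and 0.551% of those of round cells, so CPM of other genes was lowered in the elongating class. With these 4 genes left out of the totals, 2381 genes were higher and 1131 lower, the share of higher among changed genes went from 81.3 to 67.8%, and the median log2 ratio was 0.65.

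**Figure D3:**
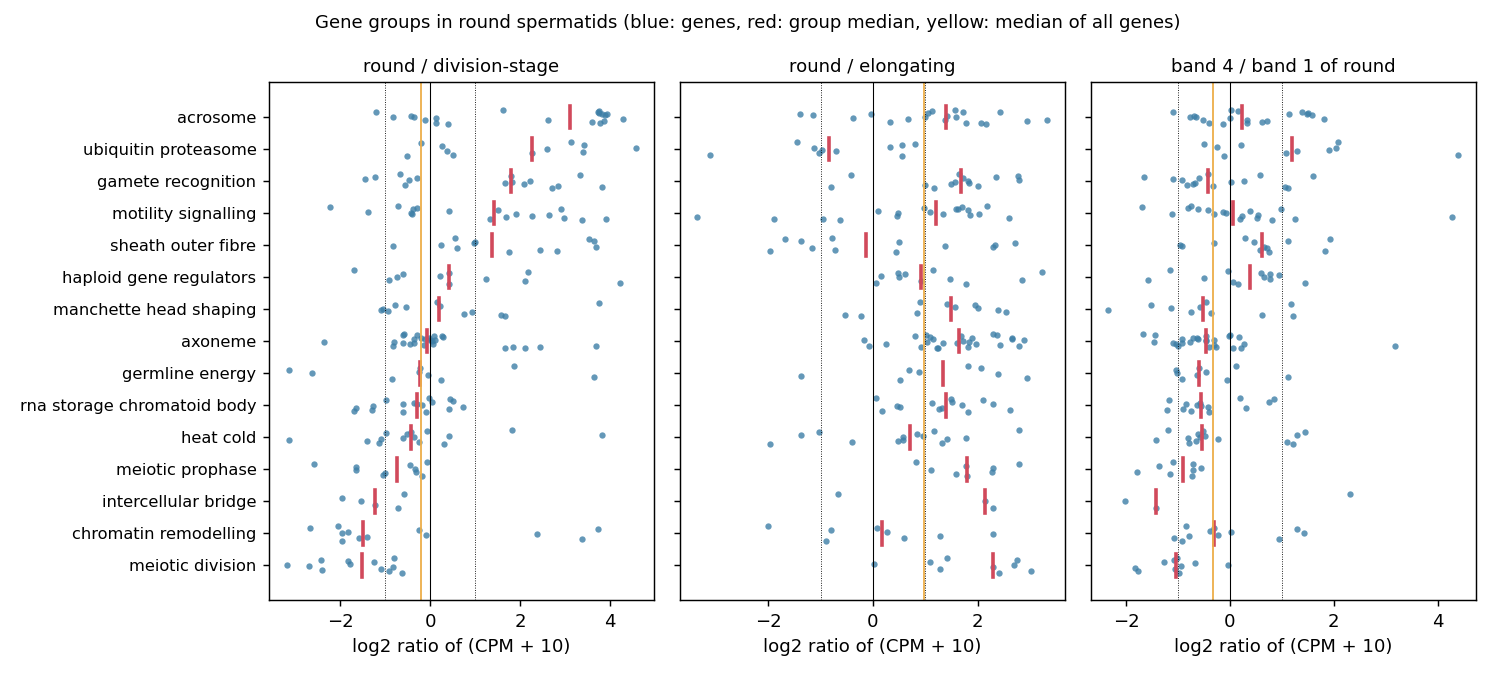
Gene groups by comparison, as log2 ratios of CPM plus 10 (x axis), with 1 blue point per measured gene, the group median in red and the median of all measured genes in yellow; dotted lines mark 2-fold. The panels compare round with division-stage cells, round with elongating cells, and the highest with the lowest protamine band of round spermatids described further on. Acrosome and ubiquitin genes sit furthest right against the division stage, with medians of 3.10 and 2.27, and meiotic division and chromatin genes furthest left, with -1.51 and -1.49.

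Acrosome genes had the highest median of the groups against the division stage, a log2 ratio of 3.10. Beside the 2 genes in the rule 20 were measured, and 12 of them were past 2-fold higher and 1 past 2-fold lower. Over all genes the shares were 26.2 and 17.9%. SPAM1, the hyaluronidase that opens the cumulus, stood at 4.43, 11.7, 415 and 258 CPM. The actin-related proteins ACTL7A (9.58, 16.6, 385 and 865 CPM) and ACTL9 (10.2, 17.7, 409 and 1100 CPM), which hold the acrosome to the nucleus, were low before the divisions and higher still in elongating cells. SPACA3, a lysozyme-like protein of the acrosomal matrix, was highest in round spermatids, with 8.99, 40.1, 676 and 153 CPM, and EQTN, an acrosomal membrane protein, ran the same way with 3.65, 22.4, 417 and 69.3 CPM.

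Another set of acrosome genes was on before the divisions. ACR, the protease acrosin, stood at 88.6, 187, 248 and 47.5 CPM, its binding protein ACRBP at 149, 397, 438 and 121 CPM, and the zona-binding protein ZPBP at 630, 927, 852 and 75.4 CPM. None of these 3 differed by 2-fold between division-stage and round cells. GOPC and PICK1, which traffic Golgi vesicles to the acrosome, stood at 332, 223, 121 and 33.4 CPM and at 84.8, 173, 127 and 41.1 CPM. The protease inhibitor SPINK2 was the single gene of the group past 2-fold lower, at 3515, 3628, 1582 and 473 CPM (log2 ratio -1.19, and -0.99 in the mean of per-cell CPM). Among the genes given as examples, those named for vesicle traffic and protease control stood between 84.8 and 3515 CPM in pachytene cells. Those for the hyaluronidase, the lysozyme-like and the actin-related proteins stood between 4.43 and 10.2 CPM. Over all 20 genes of the group, pachytene levels ran from 0.899 to 3515 CPM, with a median of 11.9. A split by function was not tested.

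Among 15 genes for egg recognition and fusion and their chaperones, 9 were past 2-fold higher than in division-stage cells and 2 were past 2-fold lower. Over all genes the shares were 26.2 and 17.9%. The median of the group was 1.79 on the log2 scale. IZUMO1, which binds the egg receptor JUNO, had 0.659, 1.34, 64.4 and 23.0 CPM, a ratio of 48.0 to the division stage. TMEM95 (1.44, 5.64, 56.7 and 13.6 CPM), TMEM81 (0.30, 3.55, 32.9 and 1.97 CPM), DCST1 (0.419, 1.40, 30.5 and 3.71 CPM) and DCST2 (1.02, 3.52, 53.3 and 7.94 CPM), all sperm membrane proteins of fertilisation, were highest in round spermatids of these 4 stages. Of the chaperones of the sperm endoplasmic reticulum, CLGN was earlier, at 1617, 1611, 688 and 91.4 CPM, whereas PDILT (4.37, 18.5, 277 and 81.3 CPM) and CALR3 (114, 93.2, 347 and 467 CPM) were later. ADAM2, a surface protein that CLGN helps to fold, stood at 355, 163, 53.7 and 9.28 CPM, so both were past 2-fold lower by class sums. In the mean of per-cell CPM neither was, with log2 ratios of -0.88 for CLGN (from -1.22) and -0.93 for ADAM2 (from -1.44).

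Of 11 measured regulators of haploid transcription, 4 were higher than at the division stage and 1 lower, within about a gene of the shares over all genes (26.2 and 17.9%). CREM was abundant throughout, with 645, 1070, 1424 and 405 CPM. FHL5, the LIM-domain partner that lets CREM activate without phosphorylation, stood at 7.43, 23.1, 603 and 581 CPM, 26.2-fold above the division stage, and KIF17, the kinesin that moves FHL5 out of the nucleus, at 2.16, 18.0, 110 and 54.1 CPM. CAMK4, a calcium-dependent kinase of spermatids, stood at 12.8, 149, 708 and 65.9 CPM. TBPL1, the TBP-related factor of spermatids, was highest at the division stage with 395, 988, 521 and 64.0 CPM, and TCFL5, a pachytene transcription factor, was past 2-fold lower with 680, 496, 146 and 61.0 CPM.

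Of 17 measured genes of the RNA storage and chromatoid body group, 0 were higher than at the division stage and 4 lower. Over all genes 26.2% were higher and 17.9% lower, so the count of lower genes was near that share. The median of the group was -0.29 on the log2 scale, and that of all genes was -0.21. The helicase DDX4 stood at 666, 516, 481 and 130 CPM, and the RNA-masking proteins YBX1 at 4346, 4212, 3687 and 2591 CPM and YBX2 at 881, 921, 754 and 548 CPM. The lower genes were TDRD1 (186, 40.5, 5.72 and 3.42 CPM), TDRD5, TDRD7 and PIWIL2 (128, 24.1, 4.18 and 2.58 CPM), which act in the piRNA pathway or in the granules where it works. TDRD6, a scaffold of the chromatoid body, stayed at 110, 76.2, 105 and 8.83 CPM. Against elongating spermatids 10 of the 14 measured genes were higher and 0 lower, when 48.4% of all genes were higher and 11.1% lower.

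Of 12 chromatin genes, 3 were higher than at the division stage and 7 lower, where 26.2 and 17.9% of all genes were. HMGB4, H1-7 (22.6, 87.6, 1007 and 1898 CPM), a spermatid linker histone, and CHD5 (2.10, 7.38, 79.9 and 64.8 CPM), a remodeller needed for histone removal, were higher. The 7 lower genes were H1-6, H2BC1 (1561, 126, 35.7 and 20.4 CPM), a testis H2B, H2AX, RNF8, EPC1, KAT5 and HMGB2 (468, 178, 19.7 and 18.0 CPM). RNF8 is a histone ubiquitin ligase and KAT5 and EPC1 belong to an acetyltransferase complex, both linked to histone removal in mice, and they stood at 119, 114 and 76.0 CPM in division-stage cells against 23.3, 19.9 and 14.4 CPM in round spermatids. The bromodomain protein gene BRDT kept its level, at 488, 535, 504 and 94.7 CPM.

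Of 11 ubiquitin and proteasome genes of germ cells, 6 were higher than at the division stage and 0 lower. Over all genes 26.2% were higher and 17.9% lower. RNF151, a ring-finger protein linked to acrosome formation, stood at 20.5, 40.9, 1208 and 2644 CPM, and TRIM36, a ring-finger ligase, at 6.47, 20.1, 254 and 709 CPM. KLHL10, the adaptor that brings substrates to CUL3 in spermatids, stood at 4.07, 15.6, 264 and 178 CPM, while CUL3 itself stood at 543, 460, 398 and 224 CPM. RNF133 and UBE2J1 were also among the 6 higher genes. Against elongating spermatids the same group had 0 of 10 genes higher and 4 lower, and its median was -0.84. Over all genes 48.4% were higher and 11.1% lower there.

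Of 26 axoneme genes of the sperm tail, 5 were higher than at the division stage and 1 lower, where 26.2 and 17.9% of all genes were. All 5 higher genes were tektins, which line the microtubule doublets. TEKT5 stood at 3.29, 9.33, 237 and 251 CPM and TEKT4 at 5.93, 67.1, 407 and 211 CPM. The beat and scaffold genes were already present in spermatocytes, such as CFAP206 (812, 1317, 1141 and 171 CPM), SPAG16 (452, 550, 502 and 85.3 CPM) and the dynein DNAH17 (73.8, 90.2, 55.6 and 11.7 CPM). RSPH1, a radial spoke protein, was the lower gene, at 379, 281, 46.8 and 17.8 CPM. Against elongating spermatids, 21 of 26 axoneme genes were higher and 0 lower, beside 48.4% higher and 11.1% lower over all genes.

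Of 12 fibrous sheath and outer dense fibre genes, 7 were higher than at the division stage and 0 lower. Over all genes the shares were 26.2 and 17.9%. Against elongating cells 4 of the 12 were higher and 4 lower, beside 48.4% higher and 11.1% lower over all genes. The median of the group there was -0.14 on the log2 scale. AKAP4, the main anchoring protein of the sheath, stood at 8.09, 14.8, 165 and 674 CPM, and GAPDHS, the glycolytic enzyme bound to the sheath, at 25.7, 53.9, 786 and 2069 CPM. OAZ3, a testis antizyme, stood at 24.0, 25.3, 399 and 1300 CPM and ODF2 at 395, 514, 780 and 1769 CPM. ODF3 and FSIP2, by contrast, were higher in round than in elongating cells, with 162 against 25.1 CPM and 410 against 53.8 CPM.

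Of 12 genes for the manchette, the microtubule skirt that shapes the head, 3 were higher than at the division stage and 2 lower, shares near the 26.2 and 17.9% over all genes. SUN3, a nuclear envelope protein that couples the manchette to the nucleus, stood at 2.34, 7.57, 226 and 78.5 CPM, the linker HOOK1 at 56.1, 78.4, 269 and 319 CPM, and MEIG1 at 232, 282, 864 and 1264 CPM. CCDC42 (392, 555, 256 and 40.9 CPM) and the kinesin KIFC1 (41.3, 20.8, 4.98 and 2.77 CPM) were the lower genes. In the mean of per-cell CPM neither passed 2-fold: the log2 ratio of CCDC42 went from -1.09 to -0.95 and that of KIFC1 from -1.04 to -0.98.

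Of 18 motility genes, 10 were higher than at the division stage and 2 lower, where 26.2 and 17.9% of all genes were. The kinase TSSK2 stood at 21.5, 57.6, 1006 and 1953 CPM and TSSK1B at 6.05, 16.2, 260 and 406 CPM. Pore-forming CatSper channel genes were higher than at the division stage, CATSPER1 with 65.3 CPM against 5.76, CATSPER3 with 93.3 against 6.54 and CATSPER4 with 49.5 against 5.95. TSSK6 was among the 10 at a log2 ratio of 1.69, which was 0.70 in the mean of per-cell CPM and 0.87 in cells thinned to 1500 UMIs. The auxiliary genes CATSPERD (45.3, 60.8, 43.5 and 11.1 CPM) and CATSPERG (85.1, 68.2, 48.4 and 32.0 CPM) were present already in spermatocytes. KCNU1, the sperm potassium channel, and LRRC52, its auxiliary subunit, were both past 2-fold higher, at 47.5 and 120 CPM against 10.1 and 7.29 CPM. The 2 lower genes were SLC9C1, a sperm sodium and proton exchanger, and PPP3R2, a testis calcineurin subunit, at 2378, 1886, 399 and 116 CPM.

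In energy metabolism, several germline forms outweighed their somatic forms. PGK2 stood at 153, 374, 446 and 307 CPM, while PGK1, the X-linked form it replaces, stood at 5.15, 11.2, 4.59 and 3.63 CPM and at 145 CPM in somatic cells. LDHC stood at 3293, 4071, 2276 and 285 CPM and LDHA at 538, 592, 145 and 32.8 CPM. GAPDHS, with 786 CPM in round spermatids, also exceeded GAPDH, which stood at 68.5, 43.3, 24.2 and 17.9 CPM. Of 4 measured somatic forms of energy genes, 0 were higher than at the division stage and 1 was lower. Over all genes the shares were 26.2 and 17.9%. The testis cytochrome oxidase subunit COX8C was highest earlier, with 1590, 852, 88.1 and 50.9 CPM, whereas COX6B2 held at 1316, 1615, 1364 and 733 CPM. Mitochondrially encoded RNA made up 5.17, 2.88, 1.01 and 0.337% of UMIs over the 4 stages.

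Meiotic transcripts were still found in round spermatids. Of 12 division genes, 8 were past 2-fold lower and 0 higher, while 17.9% of all genes were lower and 26.2% higher. CCNB2, a cyclin of division (641, 1430, 757 and 84.7 CPM), was not past 2-fold lower, and PTTG1, securin (569, 1466, 615 and 82.2 CPM), was, at a log2 ratio of -1.24. CDK1 (289, 315, 51.5 and 15.1 CPM) and TPX2 (90.1, 129, 16.1 and 6.22 CPM), a spindle assembly factor, had lower ratios still. Of 10 measured meiotic prophase genes, 5 were past 2-fold lower, among them HORMAD1 (870, 373, 113 and 25.6 CPM), and SYCE3 stood at 616, 766, 608 and 116 CPM. As said above, 806 members also reached the division-stage minimum, and the part of those cells in these levels was not tested. Of 5 bridge genes, 3 were lower, and TEX14, which keeps the germ cell bridge open, stood at 143, 35.8, 18.0 and 7.51 CPM.

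Of 15 heat and cold genes, 2 were higher than at the division stage and 4 lower, against 26.2 and 17.9% of all genes. HSP90AA1 was the lowest by ratio, with 5532, 1938, 211 and 138 CPM, and its partner PTGES3 was named above. HSPA2, the chaperone of meiotic cells, stood at 240, 82.1, 32.0 and 6.87 CPM. DNAJB8, a testis DNAJ protein, took the other direction with 24.0, 32.1, 586 and 1533 CPM, and the heat shock factor HSF2 was highest in round spermatids of these 4 stages, with 9.82, 30.9, 134 and 10.7 CPM. RBM3, a cold-inducible RNA-binding protein, stood at 11.6 CPM in round spermatids, 10.9 in elongating spermatids and 403 in somatic cells. CIRBP stood at 759, 137, 98.8 and 212 CPM.

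To follow change within the stage, the members were ordered by protamine and transition protein share and divided into 4 groups of 666, 666, 666 and 665 cells, here called bands 1 to 4. Median shares were 0.115, 0.197, 0.379 and 1.28%. The order carries depth with it, since median UMIs were 25172, 19682, 10040 and 7163, and 164, 89, 218 and 143 cells had no more of these UMIs than the upper quartile of somatic cells. It was therefore repeated over the 1856 members with at least 10000 UMIs, in 4 groups of 464 with median UMIs of 26689, 22812, 19927 and 26168. Values from these deep cells are given beside the first. The part of depth and free RNA in the order was not tested beyond this.

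Between bands 4 and 1, 1293 of 7083 genes were past 2-fold higher (18.3%) and 872 past 2-fold lower (12.3%). In the deep cells the counts were 1269 and 875. The count of lower genes depended on the weight given to each cell: it was 265 in the mean of per-cell CPM and 457 in cells thinned to 1500 UMIs. SCP2D1, a sterol-carrier domain gene of testis, stood at 3.85, 11, 141 and 898 CPM over the 4 bands, and at 3.83 and 734 CPM in the outer groups of deep cells. TP53TG5 (3.80, 14.2, 90.8 and 607 CPM) and C1H1orf100 (3.25, 16.2, 131 and 584 CPM) followed the same course. All 3 were under 10 CPM at the division stage. They were picked for their ratio between the outer bands, so a higher level in band 4 followed from that choice. Other genes of this kind were CRYBB3, CXHXorf65, DNAJB7, TTLL2, IQCF2, FNDC8 and PPM1L, all under 2 CPM in band 1 and between 126 and 242 CPM in band 4.

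**Figure D4:**
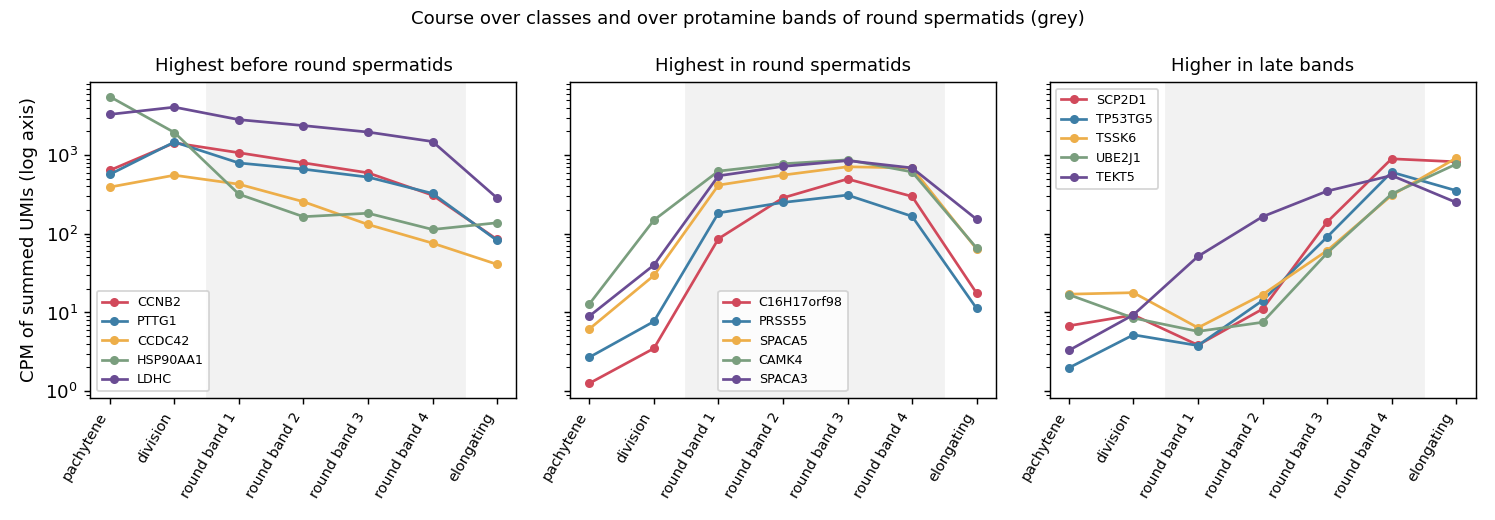
CPM of summed UMIs (log axis) over pachytene and division-stage spermatocytes, the 4 protamine bands of round spermatids (grey) and elongating spermatids, with 1 line per gene. HSP90AA1 drops from 1938 to 318 CPM between the division stage and band 1, SPACA3 peaks inside the stage at 851 CPM, and SCP2D1 goes from 3.85 to 898 CPM within it.

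Among the gene groups, ubiquitin genes had 6 of 10 higher in band 4 and 0 lower, where 18.3 and 12.3% of all genes were. The median of the group was 1.19 on the log2 scale, and that of all genes was -0.32. UBE2J1, a ubiquitin-conjugating enzyme of the endoplasmic reticulum, stood at 5.75, 7.5, 56.8 and 320 CPM over the bands, 5.52 and 268 CPM in deep cells and 768 in elongating spermatids. TSSK6, the kinase needed for histone replacement in mice, stood at 6.40, 16.9, 61.0 and 308 CPM and at 916 in elongating spermatids. TEKT5 stood at 51.6, 165, 349 and 551 CPM, the largest ratio in the axoneme group. HMGB4 was high from the start and went from 3334 to 8173 CPM (3221 and 8033 in deep cells), a log2 ratio of 1.29 that was 0.87 in the mean of per-cell CPM. Of 20 acrosome genes, 6 were higher in band 4 and 1 lower, beside the same 18.3 and 12.3% over all genes. SPAM1 stood at 195, 366, 577 and 714 CPM.

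In the other direction, several of the clearest lower genes were also high in spermatocytes. CCDC42 stood at 427, 256, 131 and 76.0 CPM over the bands, LYAR, a nucleolar protein, at 792, 532, 322 and 162 CPM, and the histone variant gene H2AZ1 at 430, 216, 150 and 86.3 CPM. KIF23, a midbody gene of the bridge group, stood at 164, 105, 60.3 and 32.8 CPM, and the division gene CCNB2 at 1072, 798, 595 and 309 CPM. Other genes were higher in band 1 than at the division stage and lower again in band 4. ODF3L1, a relative of the tail fibre gene ODF3, stood at 44.0 CPM at the division stage, at 295, 279, 216 and 53.7 CPM over the bands and at 12.2 in elongating spermatids, and FAM24B at 18.0, then 145, 154, 110 and 32.5, then 6.05 CPM. In deep cells the outer values were 299 and 85.2 CPM for ODF3L1 and 143 and 30.2 CPM for FAM24B. In the mean of per-cell CPM the log2 ratio of band 4 to band 1 was smaller for each of these genes, and for FAM24B it went from -1.86 to -0.51. For KIF23 it was -2.02, and -0.93 in cells thinned to 1500 UMIs.

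Of 2821 genes at 100 CPM or more in a band, 1268 had their highest level in band 1, 277 in band 2, 348 in band 3 and 928 in band 4. Genes peaking in band 3 included C16H17orf98 (86.5, 286, 497 and 298 CPM), PRSS55 (184, 250, 310 and 167 CPM) and CAMK4 (626, 776, 870 and 611 CPM). The CREM level was flat by comparison, with 1359, 1432, 1439 and 1511 CPM, while FHL5 went from 353 to 983 CPM. The division-stage sum, which helped to choose the members, had medians of 5.67, 3.88, 3.09 and 1.10 per 10000 over the bands. Its means were 6.08, 4.43, 3.88 and 2.77, and the part of depth in this course was not tested.

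Genes of the X chromosome are silenced in pachytene spermatocytes, and in many mammals part of that silence lasts into round spermatids. Genes were taken as X-linked from general knowledge, in lists written after the files were seen. Of 33 broadly used genes 4 reached 20 CPM in round spermatids or division-stage cells, beside 7578 of all 28845 features. The median level was 58.2 CPM in somatic cells, 49.0 in early prophase, 2.04 in pachytene, 3.02 at the division stage, 3.07 in round spermatids and 2.26 in elongating spermatids. DDX3X, an RNA helicase, was the exception, at 11.1, 53.4, 192 and 294 CPM, and UBE2A, a ubiquitin-conjugating enzyme, stood at 9.22, 25.5, 46.3 and 6.83 CPM. PDHA1 stood at 1.39 CPM in round spermatids and its autosomal testis copy PDHA2 at 847.

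Testis genes of the X chromosome had another course. The median level over the 14 found was 1.89 CPM in pachytene cells, 10.4 at the division stage, 61.5 in round spermatids and 21.2 in elongating ones. Of the 14, 10 reached 20 CPM in round spermatids or division-stage cells, beside 7578 of all 28845 features. SPACA5, already given, was the most abundant. CYLC1, a cylicin of the sperm head cytoskeleton, stood at 4.31, 29.7, 187 and 319 CPM, and ACTRT1, an actin-related protein, at 1.02, 0.838, 30.2 and 76.9 CPM. H2AB1, a short histone H2A, stood at 181 CPM in band 1 and 40.2 in band 4. The autosomal copies RPL10L and RPL39L of X-linked ribosomal genes stood at 428 and 1502 CPM, and their X-linked parents RPL10 and RPL39 at 56.7 and 10.6 CPM.

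**Figure D5:**
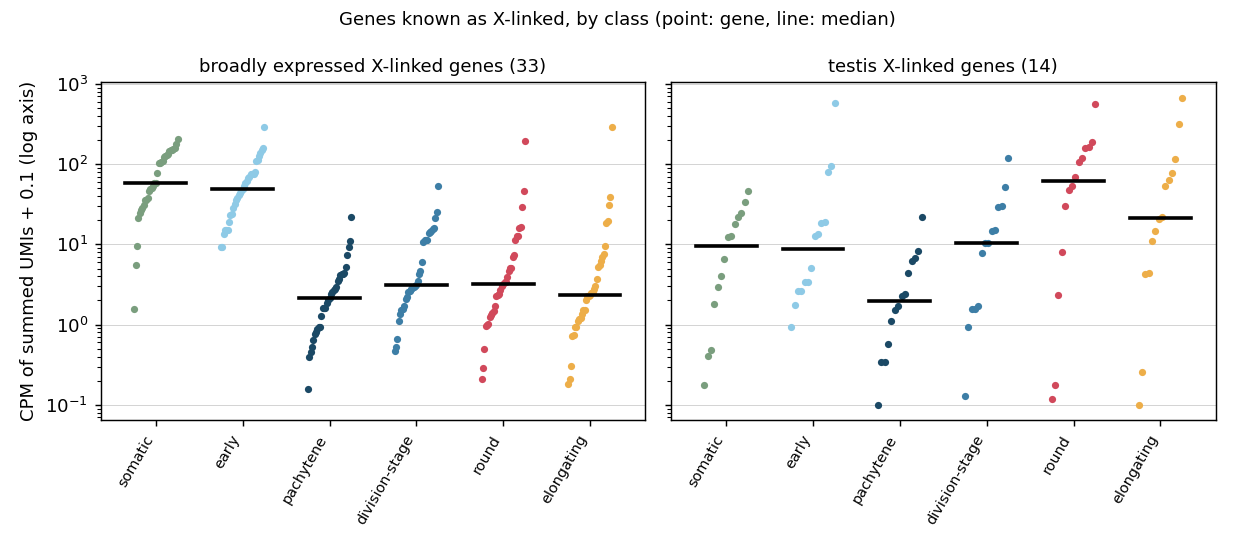
CPM of summed UMIs plus 0.1 (log axis) of genes known as X-linked, with 1 point per gene and a line at the median of each class. Broadly used genes are low from pachytene on (medians of 2.04 to 3.07 CPM), and testis genes reach a median of 61.5 CPM in round spermatids.

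Markers of other cells were low but not absent in the members. All 5 measured stromal and myoid genes were past 2-fold higher than in division-stage cells, beside 26.2% of all genes. DCN stood at 109 CPM against 36.4, COL1A2 at 26.8 against 7.52, and COL3A1, MYH11 and ACTA2 at 54.6, 24.2 and 27.2 against 6.93, 4.92 and 6.51. In the somatic reference DCN had 11399 CPM. Without the 88 members that reached the somatic marker level, DCN was 17.7 CPM and the median log2 ratio of the group went from 1.20 to -0.16. Those members had been picked by somatic markers, so a lower level without them was in part given by the choice. COL3A1 stayed past 2-fold higher, at a log2 ratio of 1.46 without them and 1.99 without doublet calls, against 1.93 over all members. Without doublet calls DCN, ACTA2, COL1A2 and MYH11 fell under 2-fold, at log2 ratios of 0.51, 0.23, 0.11 and 0.12. The Leydig cell hormone gene INSL3 stood at 78.0 CPM against 2.29, and 97.2% of its UMIs lay in 5 members; without doublet calls it was 2.46 CPM. Summed over each list, round spermatids, division-stage cells and somatic cells had 244, 63.0 and 20020 CPM of stromal and myoid markers and 83.0, 2.54 and 174 CPM of Leydig cell markers. For endothelial markers the sums were 21.3, 40.0 and 124 CPM, for Sertoli cells 12.4, 25.2 and 57.7 CPM, for immune cells 5.27, 4.61 and 114 CPM, and for spermatogonia 16.5, 47.5 and 117 CPM. No listed marker found in the files was at 0 in round spermatids. Of 8 spermatogonial markers, 7 were under 20 CPM in both classes, and the exception, DMRT1, had 20.5 CPM at the division stage and 5.19 in round spermatids.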

How the data were processed

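For each library the authors deposited a matrix of UMI counts, whole numbers of molecules for every gene in every barcode, from the 10x 3' kit. The file headers name Cell Ranger 5.0.0 and the submitters' processing notes name 3.0.1. Those notes list the mouse build mm10, but features carry macaque gene names. Which build was used was therefore not settled, and no coordinates or sequences are given. Of 28845 features, 11526 had LOC names, and 5093 of these were in the RefSeq gene table of assembly T2T-MFA8v1.1, which gave a symbol to 721. CST held 197225937 UMIs in 15952 barcodes and UAT 111047299 in 12564.

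Barcodes needed 500 detected genes, and no mitochondrial limit was set. UMIs were summed over each class, since cells are not replicates and 1 library per position allows no test. Ratios carry exact conditional binomial 95% intervals, checked on simulated data. Log2 ratios used CPM plus 10, for genes at 20 CPM in either class. Doublets were called from simulated pairs (2000 genes, 30 components, 50 neighbours) and left in. The barcodes with the highest scores were called, up to a number set in advance. Of 300 added pairs 70.7% were called, against 7.6% of real barcodes in that check.

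The naming rule took the 15 most abundant genes and, by ratio bound, the 20 clearest over all classes and 10 in each direction (5 for pachytene). From each list it took up to 4 genes highest in round spermatids. It also took the 2 with the largest and 2 with the smallest ratio in any comparison. Not all of these are quoted above, and further genes of the lists are given as examples. Members and lists were chosen with earlier results of these data known, and the X-linked lists after the files were seen. The versions were Python 3.11.15, numpy 2.4.6, scipy 1.17.1, pandas 2.3.3, scikit-learn 1.9.0 and matplotlib 3.10.9. Alternatives covered thinning to 1500 UMIs, per-cell means, doublets, free RNA, pseudocounts, filters and class limits.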

Additional observations from a re-analysis of the deposited data

How the results depend on the processing

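Of 110 recomputed counts, 99 stayed within 1.5 times the value reported. With every barcode thinned to 1500 UMIs, 1668 barcodes met the rule, and 1624 of these were members before. Without protamine and transition protein UMIs in the totals, 1131 genes were lower than in elongating spermatids, and the median log2 ratio over all genes went from 0.97 to 0.65. At a pseudocount of 20 CPM, 891 genes were lower than at the division stage and 502 lower in band 4. At 50 CPM or more there were 1304 genes higher and 875 lower than at the division stage, 1680 higher and 1537 lower than in pachytene cells, and 2134 higher than in elongating cells, since fewer genes were measured. Genes lower in band 4 numbered 265 by per-cell means and 457 in thinned cells, and the share of higher among genes past 2-fold went from 59.7% to 81.5% and 72.2%. By per-cell means the median over all genes was -0.14 in place of -0.32.

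Among 11155 recomputed ratios of named genes, 7665 stayed within their counting error, 3476 moved and 14 past 2-fold turned sign. Ratios that went under 2-fold with no change of sign numbered 51 by per-cell means, 45 in thinned cells, 36 at a pseudocount of 20 CPM (TDRD5 against the division stage at -0.88 among them), 23 without protamine and transition protein UMIs, and 3 to 11 in the other settings that had any. Between bands 4 and 1, ADAM2 turned to 0.12 by per-cell means and 0.11 in thinned cells, H2BC1 to 0.60 and 0.35, and CATSPER4 to 0.16 by per-cell means. INSL3 turned to 0.11 without doublet calls and 0.085 in members with at least 10000 UMIs. Against the division stage, DMRT1 turned to 0.11 with class sums of at least 10 per 10000. Without the 88 members with somatic markers, DCN turned to -0.75, ACTA2 to -0.16, COL1A2 to -0.27, MYH11 to -0.15 and the stromal list median to -0.16. Against pachytene cells DCN and that median turned to -0.32 and COL1A2 to -0.16. These causes were not tested.

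No paired analysis was possible because each position gave 1 library. The settings restricted to members with at least 10000 UMIs and to members without somatic markers were chosen after seeing the data. The share of UMIs from sex chromosomes was not computed, since the chromosomes at hand are those of 1 assembly and the build behind the files was not settled, and promoter motifs were not searched. Depth limits low genes: band 4 held a median of 7163 UMIs per cell.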

Other observations

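Several genes not counted in the lists had clear courses through the round spermatids. They were chosen after their values were seen, and are given as levels with no test, in the order pachytene, division stage, round, elongating. H1-8, the linker histone known from oocytes, stood at 11.2, 119, 537 and 34.5 CPM, and at 670, 632, 479 and 233 CPM over protamine bands 1 to 4. In members with at least 10000 UMIs its outer values were 673 and 273 CPM. FTMT, the ferritin of mitochondria, stood at 14.5, 83.7, 411 and 25.7 CPM and varied little over the bands, from 376 to 422 CPM. H3F3B, which encodes the replacement histone H3.3, was lower in round than in pachytene cells (2149 against 3313 CPM), but stood at 1747, 1960, 2380 and 2884 CPM over the bands. The chromatin list held this gene under its newer symbol, which the features lack, so the counts of that list leave it out.

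Transcripts of secreted peptides and proteins were also present. CARTPT, a neuropeptide precursor, stood at 47.5, 451, 151 and 21.8 CPM, and GRP, gastrin-releasing peptide, at 1.56, 14.4, 119 and 18.4 CPM. SLPI, a secreted protease inhibitor, stood at 1.5, 3.83, 170 and 183 CPM, and its levels over the bands were 6.29, 64.8, 248 and 520 CPM. The 5 members with the most UMIs of SLPI held 4.79% of them. TNFRSF12A, a receptor of the TNF family, was nearly limited to the division stage among these 4, with 15.8, 214, 16.1 and 6.30 CPM.

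A last set appeared at the far end of the round spermatids. PRSS37, a serine protease-like protein that sperm need in mice, stood at 1.46, 2.64, 4.49 and 140 CPM over the bands and at 663 CPM in elongating spermatids, and PRSS58 at 1.57, 0.972, 1.99 and 40.1 CPM, then 334 CPM. Among members with at least 10000 UMIs, the highest group had 103 CPM of PRSS37 and 30.0 of PRSS58, so both were also seen there.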
